A study of Mus musculus with 30 samples.

Results

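Axon guidance ligands and receptors were followed in the hippocampus of mouse pups heterozygous for Nf1 and of wild-type pups. Members were the array's probe sets (groups of short probes that read 1 transcript) named by 1 gene symbol that begins with Sema, Plxn, Epha, Ephb, Efna, Efnb, Ntn, Robo or Unc5, with Slit and a number, or that is Nrp1, Nrp2 or Dcc. Of 10833 probe sets with 1 symbol, for 8251 genes, 58 matched, for 45 genes. A mean intensity of 31 or more over all arrays kept 40 of them, for 34 genes: 11 semaphorins, 6 plexins and neuropilins, 5 ephrins, 8 Eph receptors, Ntn1, Unc5c, Robo1 and Unc50. Unc50 matched by its spelling alone. It is a Golgi protein, known from the worm Caenorhabditis elegans for the traffic of acetylcholine receptors, and not a netrin receptor.

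The pups were males from a cross of C57BL/6 with Nf1 heterozygotes, and each of the 30 arrays (Affymetrix MG-U74Av2) read the pooled hippocampal RNA of 2 pups of 1 genotype. The Nf1 heterozygous pools numbered 4, 4, 2, 2, 2 and 1 at postnatal days P10, P15, P18, P20, P28 and P32. The wild-type pools numbered 3, 4, 2, 2, 2 and 2 at the same ages. Nf1 encodes neurofibromin, which turns Ras off, and the heterozygotes lack 1 working copy in every cell. The RNA mixes all cell types of the hippocampus, so no result can be assigned to 1 of them. Neither the litters behind a pool nor the day it was processed are given here, so p-values cover the spread from pool to pool, which may be technical.

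Growing axons find their targets by reading cues in their surroundings. Semaphorins act through plexins, with neuropilins as co-receptors for the secreted class 3. Ephrins are membrane-bound ligands of the Eph receptor tyrosine kinases and can also signal back into the cell that carries them. Netrins attract through Dcc and repel through Unc5 receptors, and Slits repel through Robo receptors. In the hippocampus the same molecules are known for sorting entorhinal and mossy fibre inputs into layers, pruning axons, and shaping spines and synapses after the axons have arrived.

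The deposited values are linear intensities that had been brought to 1 level per array, with array medians from 49.99 to 59.11. The list of hippocampal excitatory neuron markers had 10 genes with values, whose summed intensity lay between 2733 and 3765 at P28 and P32, against 2403.5 to 2523.5 at P10. The level of Nf1 itself was not analysed here, so the genotype labels were not checked against it. Library 1b of the heterozygous P18 group stood apart. Its ratio of the 3′ to the 5′ Gapdh control probe sets, which rises as RNA degrades, was 0.48 on the log2 scale, against -0.33 to 0.17 in the other libraries. It correlated with its partner at 0.93, against 0.95 or more within the other groups. Genotype differences called at P18, by phase or as an interaction were also tested without it. For the changes within each phase, only counts of calls are given without it. Means and ranges that cover P18 include it.

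Promoters of the 3 members with the largest falls and the 2 with the largest rises after P10 are shown because these genes carry the changes described below. The sequences are from RefSeq on GRCm38.p6 and run 5′ to 3′ on the gene's own strand. Each runs from 250 bases before to 50 bases after a start listed for the gene. For Plxnd1 and Epha7 that start lies inside the gene's outer bounds. Sema6c and Epha7 each have a second listed promoter, not shown, with 0 and 1 GC boxes. Capitals mark the GC box, the letters GGGCGG on either strand, a motif read by Sp family factors, whose copies may overlap.
Sema6c (chr3:95160170-95160469, plus strand): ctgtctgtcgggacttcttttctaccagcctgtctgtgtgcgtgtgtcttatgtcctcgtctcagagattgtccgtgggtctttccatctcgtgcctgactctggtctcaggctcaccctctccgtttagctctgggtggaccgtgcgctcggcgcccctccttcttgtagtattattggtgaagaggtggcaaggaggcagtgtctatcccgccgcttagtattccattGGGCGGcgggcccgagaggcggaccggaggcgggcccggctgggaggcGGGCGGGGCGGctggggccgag
Plxnd1 (chr6:115994956-115995255, minus strand): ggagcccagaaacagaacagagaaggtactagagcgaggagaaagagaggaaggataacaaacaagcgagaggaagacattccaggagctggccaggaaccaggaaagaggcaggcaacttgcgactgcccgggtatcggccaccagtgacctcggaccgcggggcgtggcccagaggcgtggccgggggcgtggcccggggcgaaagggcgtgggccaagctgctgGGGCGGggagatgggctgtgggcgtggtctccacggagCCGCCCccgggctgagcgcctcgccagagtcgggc
Efna2 (chr10:80179232-80179531, plus strand): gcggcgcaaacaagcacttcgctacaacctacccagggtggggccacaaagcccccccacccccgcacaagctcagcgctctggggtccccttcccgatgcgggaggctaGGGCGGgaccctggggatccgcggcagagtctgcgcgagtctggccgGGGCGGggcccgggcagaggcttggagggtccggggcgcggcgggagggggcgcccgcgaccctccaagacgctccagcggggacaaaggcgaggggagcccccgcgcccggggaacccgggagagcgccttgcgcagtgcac
Epha7 (chr4:28812881-28813180, plus strand): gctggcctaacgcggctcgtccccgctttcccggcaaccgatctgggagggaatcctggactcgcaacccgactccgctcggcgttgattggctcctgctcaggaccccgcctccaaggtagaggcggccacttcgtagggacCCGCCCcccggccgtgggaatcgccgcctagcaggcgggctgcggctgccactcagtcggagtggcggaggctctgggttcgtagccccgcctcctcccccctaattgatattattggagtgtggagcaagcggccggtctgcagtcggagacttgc
Unc5c (chr3:141465314-141465613, plus strand): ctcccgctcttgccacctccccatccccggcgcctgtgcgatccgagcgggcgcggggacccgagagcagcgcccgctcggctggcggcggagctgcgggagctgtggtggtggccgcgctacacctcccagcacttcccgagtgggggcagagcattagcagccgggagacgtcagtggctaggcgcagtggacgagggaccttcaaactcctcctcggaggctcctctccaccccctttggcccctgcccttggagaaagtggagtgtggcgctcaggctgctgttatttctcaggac

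RefSeq listed 43 promoters for 31 of the 34 genes. The GC box was in 32 of them (74.4%), against 63.0% of 6060 promoters of all genes tested and 35.7% of all 32851 promoters of the table. By gene, it was in at least 1 promoter of 12 of 14 genes that fell after P10, 4 of 6 that rose (Unc50, and Ephb6 by its brighter probe set, among them) and 9 of 11 that did not pass the test. The shares above are per promoter, and no share by gene was computed for all genes tested. A gene with several listed promoters also has more places for a match, so the counts by gene cannot be set against those shares. The E boxes CACGTG and CAGATG were in 4 and 3 of the 43 promoters (9.3% and 6.98%), against 10.5% and 11.2% of those of all genes tested. Matches are a description of these windows only.

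Most ligands and receptors that changed were lower after the third postnatal week than at P10. The comparison of P28 and P32 with P10, averaged over genotypes, is called maturation here. It came from limma, a linear model fitted to all 7591 probe sets tested and all 30 arrays, and a probe set was called at a Benjamini-Hochberg adjusted p below 0.05. Of the 40 members 21 fell and 6 rose, that is 52.5% and 15%. Of all probe sets tested, 29.1% fell and 24.5% rose. The members' median log2 fold change was -0.43, against -0.065 over all probe sets tested. Counted once per gene, with the brightest probe set, 17 of 34 fell and 6 rose, and the median was -0.31. The 6 hold Ephb6, whose other probe set fell, and Unc50, without which 5 of 33 rose. In this bulk tissue fewer cells of a type and less RNA per cell cannot be told apart.

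**Figure D1:**
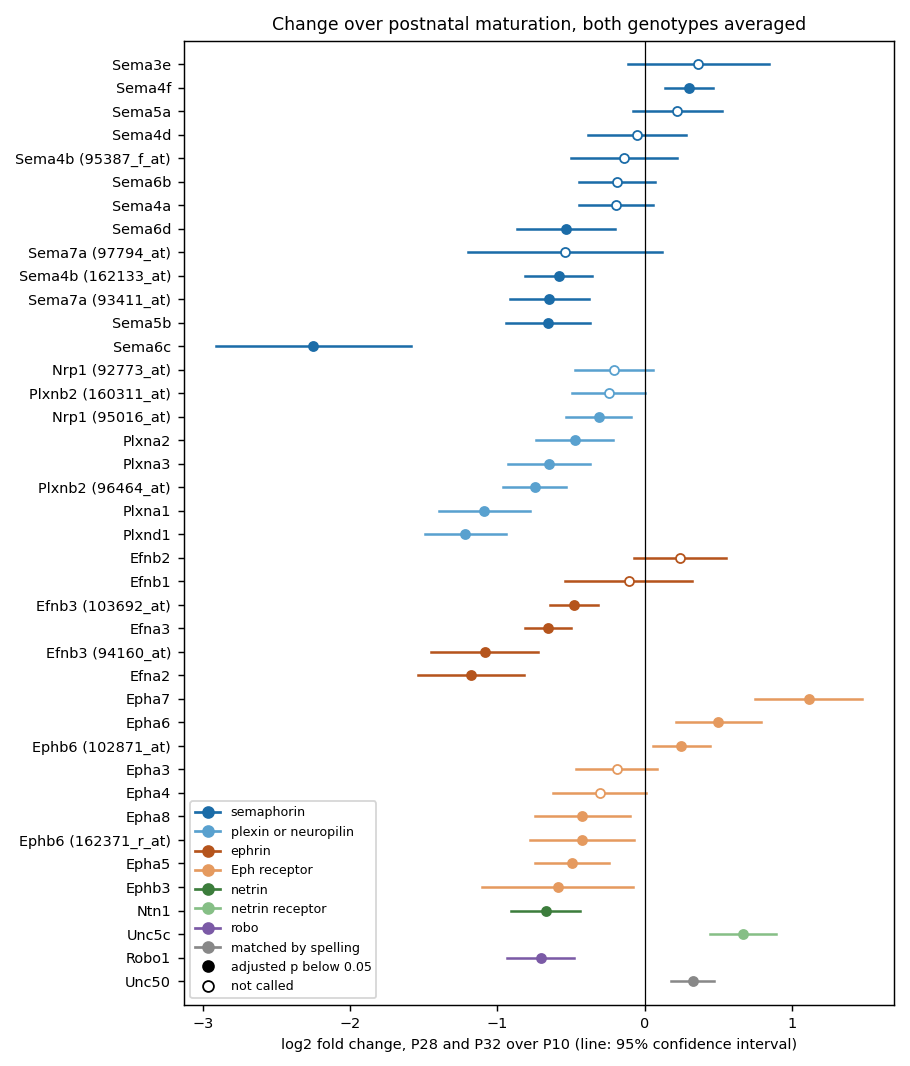
Log2 fold change from P10 to P28 and P32 (x axis) of each of the 40 members (rows, coloured by family), both genotypes averaged. Points are limma estimates, lines their 95% confidence intervals, filled points are called (adjusted p below 0.05) and open ones are not. Sema6c lies lowest at -2.25 and Epha7 highest at 1.11, and all called plexins, neuropilins and ephrins lie left of 0.

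The pools of the 2 windows separated completely for 15 members. All 7 pools of P28 and P32 lay below all 7 of P10 for 13 members (32.5%), against 13.2% of all probe sets tested. All lay above for 2 members, Epha7 and Unc5c, or 5%, against 13.4%. The Gapdh ratio did not separate the windows: it ran from -0.14 to 0.15 at P28 and P32 and from -0.15 to 0.062 at P10. The array medians did, at 49.99 to 52.19 at P28 and P32, against 55.66 to 59.11 at P10. Quantile normalization, which levels the medians, is among the alternatives given below.

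Semaphorins split. Of 13 probe sets, 5 fell, 1 rose and 7 did not pass the test, with a median of -0.19. Sema6c, a transmembrane semaphorin of class 6, fell most. Its lowest, median and highest intensities were 98.5, 144 and 166 at P10, 59.1, 82.1 and 95.2 at P15, 26.7, 74.1 and 107 at P18 and P20, and 9.995, 28.7 and 64.9 at P28 and P32. Every pool of P28 and P32 lay below every P10 pool, and the maturation change was -2.25 (SE 0.32, adjusted p = 2.76e-06) on the log2 scale. Low values such as the 9.995 of 1 late pool weigh on its size: with log2(value + 32) the change was -1.42, still called. Heterozygous group means at the 6 ages in order were 153, 87.5, 61.8, 57.5, 36.6 and 37.2, and wild-type means were 123, 74.1, 98.3, 69.7, 37.4 and 23.1. The probe set carries the array maker's suffix _i, given to sets with fewer probes than usual.

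Sema7a, a lipid-anchored semaphorin that promotes axon growth through integrins, had 149, 197 and 237 at P28 and P32, against 283, 310.5 and 365 at P10. The change was -0.65 (SE 0.13, adjusted p = 0.000205), and no late pool reached a P10 pool. Its means were 309, 302, 275, 336, 217 and 229.9 in heterozygotes and 320.2, 248, 296, 283, 199 and 165 in wild type over the 6 ages in order. A second, dim Sema7a probe set (97794_at) had -0.54 (95% confidence interval -1.20 to 0.12, adjusted p = 0.156) and was dimmest at P28 and P32. Sema5b, a transmembrane semaphorin known to repel retinal neurites in mouse, had 100.4, 109 and 125 at P10, 92.3, 110.3 and 122 at P15, 46.6, 106 and 120.2 at P18 and P20, and 54.2, 65.7 and 93.2 at P28 and P32. Its windows up to P20 shared a median near that of P10, the heterozygous P18 pool 1b held the lowest value of them, and the late pools lay below all P10 pools. The change was -0.66 (SE 0.14, adjusted p = 0.000363). Sema6d, a ligand of plexin A1, had 66.5, 85.4 and 116 at P10, 72.2, 94.7 and 160.5 at P15, 65.2, 102 and 130.3 at P18 and P20, and 41.2, 62.0 and 78.9 at P28 and P32, with overlapping windows and a change of -0.53 (SE 0.16, adjusted p = 0.00771).

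Sema4b, a class 4 transmembrane semaphorin, was read by a pair of probe sets that differed. The first (162133_at) had 57.5, 67.9 and 79.9 at P28 and P32, against 83.7, 107 and 121 at P10, a change of -0.58 (SE 0.11, adjusted p = 9.45e-05). The second (95387_f_at, whose suffix marks probes shared with related sequences) had 87.2, 93.7 and 151 at P10, 57.8, 77.5 and 98.1 at P15, 56.6, 82.8 and 277 at P18 and P20, and 77.4, 94.8 and 119 at P28 and P32, and its change did not pass the test at -0.14 (95% confidence interval -0.50 to 0.22, adjusted p = 0.507). Sema4f, a class 4 semaphorin found at glutamatergic synapses, was the semaphorin that rose. It had 294, 315 and 356 at P10, 335, 371 and 399 at P15, 252, 369.8 and 385 at P18 and P20, and 346, 399 and 447 at P28 and P32, and the change was 0.30 (SE 0.078, adjusted p = 0.00259), with windows that overlapped at their edges. Heterozygous means were 317, 375, 308, 332, 408 and 399 over the 6 ages in order, against 331, 369, 376, 384, 364 and 423 in wild type.

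The other 5 semaphorins did not pass the test. Sema3e, the secreted ligand of plexin D1, had 194, 224 and 283 at P28 and P32, against 111, 202 and 296 at P10, a wide spread in both windows, and a difference of 0.36 (95% confidence interval -0.12 to 0.84, adjusted p = 0.192). Sema4a, a class 4 semaphorin known in mouse from immune cells and retina, had 148, 179 and 206 at P10, 169, 185 and 249 at P15, 123, 219 and 257 at P18 and P20, and 120.4, 159 and 184 at P28 and P32, with a difference of -0.19 (95% confidence interval -0.45 to 0.06, adjusted p = 0.187). Sema5a, which like Sema5b carries thrombospondin repeats, was near the threshold with 21.0, 26.3 and 35.1 at P10, 31.6, 37.3 and 43.5 at P15, 34.8, 40.5 and 56.5 at P18 and P20, and 24.2, 32.3 and 36.4 at P28 and P32, highest in the middle ages, and a difference of 0.22 (95% confidence interval -0.08 to 0.53, adjusted p = 0.211). Sema4d, the ligand of plexin B1, had -0.05 (95% confidence interval -0.38 to 0.28, adjusted p = 0.811), and Sema6b, a class 6 semaphorin, had -0.19 (95% confidence interval -0.45 to 0.07, adjusted p = 0.206).

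Among plexins and neuropilins 6 of 8 probe sets fell and none rose, with a median of -0.56. Plxnd1, the receptor of Sema3e, found on vascular endothelium and on sets of neurons, had 237, 255 and 313 at P10, 119.9, 178 and 268 at P15, 105, 139 and 169 at P18 and P20, and 107, 110.2 and 123 at P28 and P32. The late pools spanned a narrow range below every P10 pool, and the change was -1.22 (SE 0.13, adjusted p = 5.88e-08). In heterozygotes its group means were 256, 181, 137, 127, 112 and 115 at the 6 ages in order, and in wild type 270.0, 178, 145, 137, 115 and 109.

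Plxna1, a signalling receptor for class 3 and class 6 semaphorins, took another course. It had 73.9, 95.7 and 125 at P10, 90.3, 112 and 151 at P15, 42.1, 91.3 and 143 at P18 and P20, and 26.7, 41.4 and 63.5 at P28 and P32, and all late pools lay below all P10 pools. The change was -1.09 (SE 0.15, adjusted p = 1.55e-06). Group means were 91.7, 104, 55.7, 76.7, 52.5 and 49.8 in heterozygotes at the 6 ages in order and 97.3, 128, 137, 112, 44.8 and 33.5 in wild type, where P15, P18 and P20 lay above P10.

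Plxna3, which with Plxna2 guides hippocampal mossy fibres and other tracts in mouse, had 134, 156 and 214 at P10, 107, 138 and 213 at P15, 75.7, 107 and 146 at P18 and P20, and 75.0, 109 and 121 at P28 and P32 and a change of -0.65 (SE 0.14, adjusted p = 0.000318), with no overlap between late and P10 pools. Its means were 163, 141, 102, 89.5, 83.8 and 115 in heterozygotes and 160.5, 156, 138, 114, 98.6 and 117 in wild type at the 6 ages in order. Plxna2 had 127, 159.6 and 211 at P10, 131, 147 and 189 at P15, 88.6, 120.0 and 143 at P18 and P20, and 89.6, 114 and 141 at P28 and P32, overlapping windows and a change of -0.48 (SE 0.13, adjusted p = 0.0028). Plxnb2, a receptor for class 4 semaphorins, was read by a pair of probe sets. One (96464_at) had 103, 118 and 140.4 at P10, 101, 121 and 167 at P15, 68.6, 103 and 172 at P18 and P20, and 64.0, 71.2 and 79.3 at P28 and P32 and a change of -0.75 (SE 0.10, adjusted p = 2.1e-06), without overlap. Its heterozygous means were 119, 111, 75.5, 75.3, 73.7 and 75.1 at the 6 ages in order, against 123, 145, 167, 131, 72.7 and 66.3 in wild type, the widest gaps being at P18 and P20. The other (160311_at) had 126, 177 and 193 at P28 and P32, against 175, 185 and 221 at P10 and did not pass the test, at -0.25 (95% confidence interval -0.49 to -1.8e-05, adjusted p = 0.0846).

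Nrp1, the co-receptor for Sema3a that also binds VEGF, was lower at P15 than at P10 by both of its probe sets. The brighter (95016_at) had 798, 851 and 974 at P10, 499.5, 583 and 719.9 at P15, 457, 526 and 933 at P18 and P20, and 545, 746 and 815 at P28 and P32, with a maturation change of -0.31 (SE 0.11, adjusted p = 0.0178). This call was lost without the wild-type P10 pool 1b (-0.27, adjusted p = 0.0568) or the wild-type P32 pool 1b (-0.26, adjusted p = 0.0544). The other (92773_at) had 287, 334 and 358 at P10, 208, 225 and 299 at P15, 195, 259 and 489 at P18 and P20, and 216, 303 and 332 at P28 and P32 and -0.21 (95% confidence interval -0.47 to 0.06, adjusted p = 0.18).

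Of 6 ephrin probe sets, 4 fell and 0 rose, with a median of -0.57, and the falls were in 3 of 5 genes. Efna2, a lipid-anchored ligand of EphA receptors, had 55.9, 93.7 and 139.9 at P10, 54.7, 72.8 and 93.3 at P15, 40.3, 53.6 and 73.2 at P18 and P20, and 25.7, 38.2 and 59.4 at P28 and P32. Its highest late pool overlapped the lowest P10 pool, and the change was -1.18 (SE 0.17, adjusted p = 4.71e-06), or -0.75 with log2(value + 32), still called. Means at the 6 ages in order were 98.5, 65.8, 55.1, 55.1, 40.7 and 30.1 in heterozygotes and 79.0, 82.2, 62.7, 51.7, 53.6 and 31.9 in wild type. Efna3, an EphA ligand known in mouse hippocampus for limiting dendritic spines through Epha4, had 462, 577 and 611 at P10, 518, 579 and 626 at P15, 323, 465 and 671 at P18 and P20, and 289, 332 and 419 at P28 and P32. It held its P10 level at P15, and every late pool lay below every P10 pool, with a change of -0.66 (SE 0.076, adjusted p = 1.29e-07). In heterozygotes the means at the 6 ages in order were 534, 567, 354, 427, 378 and 404, and in wild type 578, 589.7, 624, 494, 326 and 309.

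Efnb3, a transmembrane ephrin known in mouse as a midline barrier and as a postsynaptic signal, fell by both of its probe sets. One (94160_at) had 273, 298 and 355 at P10, 261, 373 and 528 at P15, 173, 307 and 422 at P18 and P20, and 92.8, 150.3 and 196 at P28 and P32 and a change of -1.09 (SE 0.18, adjusted p = 1.56e-05). The other (103692_at) had 1005, 1126 and 1246 at P10, 778, 991 and 1169 at P15, 692, 800.3 and 938 at P18 and P20, and 759, 803 and 887 at P28 and P32 and a change of -0.48 (SE 0.079, adjusted p = 1.8e-05). Late and P10 pools did not overlap on either probe set, and the sizes differed. On the first, heterozygous means were 294, 369, 248, 176, 151 and 150.3 at the 6 ages in order, and wild-type means 320.1, 390.4, 307, 373, 153 and 139. Efnb2, a ligand of EphB and Epha4 receptors found on arteries and neurons, had 236, 291 and 402 at P28 and P32, against 210.2, 237 and 300.2 at P10 and did not pass the test at 0.24 (95% confidence interval -0.07 to 0.55, adjusted p = 0.188). Efnb1, a ligand of EphB receptors, had 32.7, 44.5 and 66.9 at P28 and P32, against 31.5, 40.2 and 79.3 at P10 and -0.11 (95% confidence interval -0.54 to 0.32, adjusted p = 0.685).

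Eph receptors moved both ways, with 4 of 9 probe sets lower, 3 higher and 2 not called. Epha7, a receptor known in mouse for repelling cortical axons and for spine maturation, rose most of all members. It had 188, 268 and 339 at P10, 220.1, 289 and 408 at P15, 249, 382 and 665 at P18 and P20, and 482, 585 and 701 at P28 and P32. All late pools lay above all P10 pools, and the change was 1.11 (SE 0.18, adjusted p = 1.11e-05). Group means were 258, 302, 523, 411, 643 and 588 in heterozygotes at the 6 ages in order and 275, 279, 356, 339, 567 and 486 in wild type. Epha6, another ephrin-A receptor, rose too. It had 68.5, 96.1 and 111 at P10, 81.0, 109.6 and 122 at P15, 77.5, 127 and 144 at P18 and P20, and 105, 125 and 150.1 at P28 and P32, with overlapping windows and a change of 0.50 (SE 0.14, adjusted p = 0.00458). Its heterozygous means were 95.1, 114, 138, 110.2, 137 and 116 over the 6 ages in order, its wild-type means 84.8, 92.8, 119, 113, 127 and 124.

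Epha5, an ephrin-A receptor of hippocampal neurons, fell early. It had 162, 212 and 293 at P10, 94.1, 126 and 142 at P15, 92.4, 147 and 249.7 at P18 and P20, and 132, 149 and 194 at P28 and P32, lowest at P15, and a maturation change of -0.49 (SE 0.12, adjusted p = 0.00168). Means ran 233, 117, 211, 158, 145 and 132 in heterozygotes and 194, 122, 97.3, 142, 165 and 162 in wild type at the 6 ages in order, with the genotypes apart at P18. Ephb3, a receptor known in mouse for commissural axons and hippocampal spines, had 41.9, 53.9 and 71.6 at P10, 22.2, 31.6 and 54.7 at P15, 14.5, 35.5 and 60.2 at P18 and P20, and 23.6, 33.1 and 45.3 at P28 and P32 and a change of -0.59 (SE 0.25, adjusted p = 0.0476). Means were 51.9, 34.4, 31.2, 44.5, 34.6 and 45.3 in heterozygotes at the 6 ages in order, and 55.0, 33.8, 29.1, 41.4, 27.4 and 36.0 in wild type. Epha8, an ephrin-A receptor known in mouse for midbrain commissural axons, had 45.3, 60.7 and 76.0 at P10, 49.7, 65.5 and 82.2 at P15, 42.5, 49.5 and 64.4 at P18 and P20, and 39.7, 42.8 and 70.0 at P28 and P32 and a change of -0.42 (SE 0.16, adjusted p = 0.0267). The call of Ephb3 was lost in 15 of the 30 fits that left out 1 library, with adjusted p up to 0.0955. That of Epha8 was lost in 6 of them, with adjusted p up to 0.0827.

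Ephb6, an Eph receptor without kinase activity, gave opposite signs. One probe set (102871_at) had 226, 264 and 296 at P28 and P32, against 202, 219 and 245 at P10, a change of 0.25 (SE 0.094, adjusted p = 0.0289), lost in 5 of the 30 fits with 1 library left out. The other (162371_r_at, whose suffix marks relaxed probe selection) had 57.4, 82.0 and 177 at P28 and P32, against 104, 116 and 135 at P10, a change of -0.43 (SE 0.17, adjusted p = 0.0389), lost in 8. The gene enters the count by gene through the first, and no direction is claimed for it. Epha4, a receptor of both ephrin classes that limits spines, had 188, 253 and 289.8 at P28 and P32, against 242, 298 and 357 at P10 and did not pass the test at -0.31 (95% confidence interval -0.62 to 0.01, adjusted p = 0.0939). Epha3, an ephrin-A receptor, had 30.97, 37.7 and 43.2 at P28 and P32, against 34.1, 40.3 and 50.3 at P10 and -0.19 (95% confidence interval -0.47 to 0.09, adjusted p = 0.238).

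The netrin and Slit systems were read by 3 probe sets above the threshold. Ntn1, the secreted netrin, had 96.2, 109 and 142 at P10, 75.3, 98.0 and 142 at P15, 61.7, 75.9 and 119 at P18 and P20, and 58.1, 74.5 and 81.0 at P28 and P32. No late pool reached a P10 pool, and the change was -0.67 (SE 0.11, adjusted p = 2.37e-05). Heterozygous means over the 6 ages in order were 120.1, 83.9, 66.0, 86.3, 69.5 and 58.1, and wild-type means 103, 114, 107, 75.7, 78.3 and 74.1. Unc5c, a receptor through which netrin repels axons, went the other way with 123, 158 and 180.1 at P10, 158, 173 and 195 at P15, 132, 198 and 277 at P18 and P20, and 185, 246 and 300.0 at P28 and P32. All late pools lay above all P10 pools, with a change of 0.67 (SE 0.11, adjusted p = 1.75e-05). In heterozygotes the means were 159.9, 186, 245, 250.1, 229 and 231 at the 6 ages in order, and in wild type 142, 167, 171, 152, 255 and 242. Robo1, a Slit receptor, had 102, 138 and 145 at P10, 74.7, 93.7 and 121 at P15, 82.3, 92.9 and 125 at P18 and P20, and 71.9, 81.1 and 97.7 at P28 and P32, no overlap between P28 and P32 and P10, and a change of -0.71 (SE 0.11, adjusted p = 9.92e-06). Its means were 132, 88.6, 108, 88.5, 83.1 and 72.0 in heterozygotes over the 6 ages in order and 129, 99.0, 88.4, 91.8, 91.1 and 72.1 in wild type. Unc50, matched by spelling, had 454, 523 and 620.4 at P10, 491, 582 and 629 at P15, 593, 617 and 831 at P18 and P20, and 599, 609.7 and 732 at P28 and P32 and a change of 0.33 (SE 0.071, adjusted p = 0.000448). Its means at the 6 ages in order were 541, 551, 612, 740.3, 605 and 732 in heterozygotes and 502, 581, 595, 637, 602 and 676 in wild type.

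**Figure D2:**
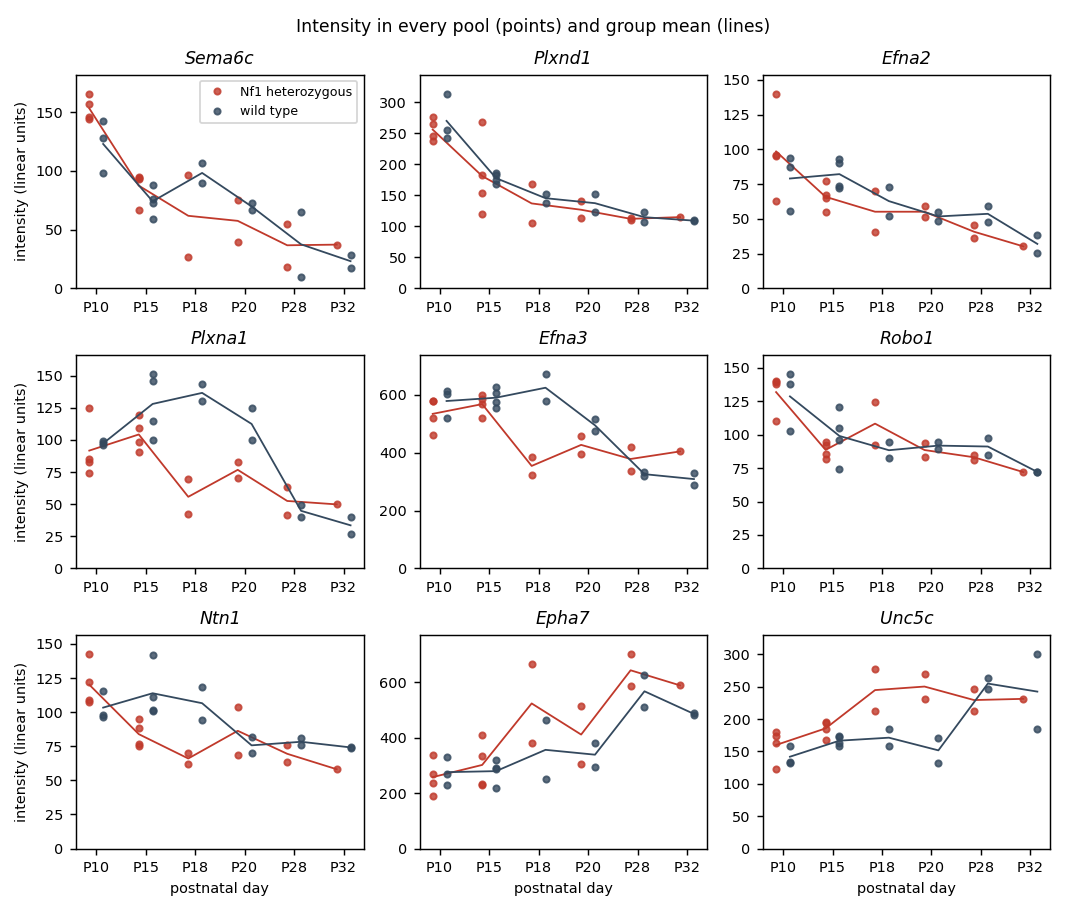
Intensity in linear units (y axis, from 0) by postnatal day (x axis) for 9 members. Points are pools and lines join group means, in red for Nf1 heterozygous and in dark blue-grey for wild type. Mean lines of Sema6c, Plxnd1 and Robo1 are highest at P10 in both genotypes, those of Epha7 are highest at P28, and Plxna1 and Efna3 separate by genotype at P18.

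The falls came at different ages for different members. From P10 to P15, 8 members fell and 2 rose, 20% and 5%, against 13.3% and 12.4% of all probe sets tested. The largest were Epha5 at -0.83 (SE 0.12, adjusted p = 1.03e-05), Ephb3 at -0.68 (SE 0.23, adjusted p = 0.0346) and Plxnd1 at -0.58 (SE 0.13, adjusted p = 0.00142). Nrp1 fell by both probe sets, at -0.56 (SE 0.10, adjusted p = 0.000264) and -0.43 (SE 0.12, adjusted p = 0.011), and Robo1 at -0.48 (SE 0.10, adjusted p = 0.00154). The second Sema4b probe set (95387_f_at) stood at -0.45 and Efnb3 (103692_at) at -0.23. Sema4f rose by 0.20 (SE 0.074, adjusted p = 0.0486). Sema5a had 0.45 (SE 0.14, adjusted p = 0.0189), but with a mean of 27.3 at P10 it passed the intensity threshold through the later ages, and among the 38 members above it at both ends 1 rose. The calls of Epha5, Plxnd1, Robo1 and both Nrp1 probe sets held in every fit that left out 1 library, and those of the other 5 did not. The count was lowest, 6, without the wild-type P10 pool 2a.

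From P15 to P18 and P20, 6 members fell and 0 rose, 15% and 0%, against 6.18% and 7.13% of all probe sets tested. Plxna3 changed by -0.41 (SE 0.12, adjusted p = 0.0305), Plxnd1 by -0.38 (SE 0.12, adjusted p = 0.0402) and Plxna2 by -0.35 (SE 0.11, adjusted p = 0.0454). Efnb3 stood at -0.50 and -0.28 on its probe sets, and Efna3 at -0.32. Without the heterozygous P18 pool 1b, 3 of the 40 members were called, and without pool 1a 15. The count was 2 without the heterozygous P15 pool 1d or the wild-type P15 pool 2d. By genotype, heterozygotes had 6 of 40 members called lower and 4 higher, against 8.92% and 9.5% of all probe sets, so the rises were near that share. In wild type limma called 0 (4 at an unadjusted p below 0.05), against 0.382% lower and 0.79% higher. The 4 higher in heterozygotes were Sema4b (95387_f_at), Epha5, Unc5c and Unc50. Without pool 1b the heterozygous count of 10 was 4, and without pool 1a 17. In every fit with 1 library left out, 2 of the 6 calls over both genotypes held, those of Efna3 and of Efnb3 (103692_at).

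From P18 and P20 to P28 and P32, 13 members fell and 1 rose, 32.5% and 2.5%, against 10.6% and 8.33% of all probe sets tested. Semaphorins made up 8 of the 13. Among the 38 members with means of 31 or more both at P10 and at P28 and P32, 11 fell, 6 of them semaphorins, since Sema5a and Sema7a (97794_at) are left out. Sema6c changed by -1.20 (SE 0.31, adjusted p = 0.00824), Plxna1 by -1.02 (SE 0.14, adjusted p = 3.14e-05) and Sema6d by -0.68 (SE 0.16, adjusted p = 0.00358). Efnb3 (94160_at) stood at -0.86, Plxnb2 (96464_at) at -0.55 and Efna2 at -0.55. Sema7a stood at -0.54 and -1.05, Sema5b at -0.40, Sema5a at -0.41, Efna3 at -0.40, Sema6b at -0.37 and Sema4a at -0.33. Epha7 rose by 0.54 (SE 0.17, adjusted p = 0.0268). Without the heterozygous P18 pool 1b, 16 members were called. The count was 7 without the wild-type P18 pool 1d or the heterozygous P28 pool 1a, and 7 calls held in every fit with 1 library left out: Sema6c, Sema6d, Sema7a (93411_at), Plxna1, Plxnb2 (96464_at), Efna3 and Efnb3 (94160_at). The rise of Epha7 was lost in 6 of the 30 such fits (adjusted p up to 0.086), and the falls of Sema4a and Sema5a in 23 and 21.

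The late calls were uneven between genotypes. In heterozygotes limma called 0 of 40 members (7 at an unadjusted p below 0.05), against 1.32% of all probe sets lower and 1.04% higher. In wild type 12 of 40 members fell and 5 rose, against 15.2% lower and 13.3% higher, so the rises were near the share of all probe sets. The heterozygous count was 1 without the heterozygous P18 pool 1b and 3 without pool 1a, and the wild-type count of 17 was 11 without the wild-type P32 pool 1a and 4 when the Gapdh ratio was a covariate. Tests of the difference itself are given with the genotype comparisons.

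**Figure D3:**
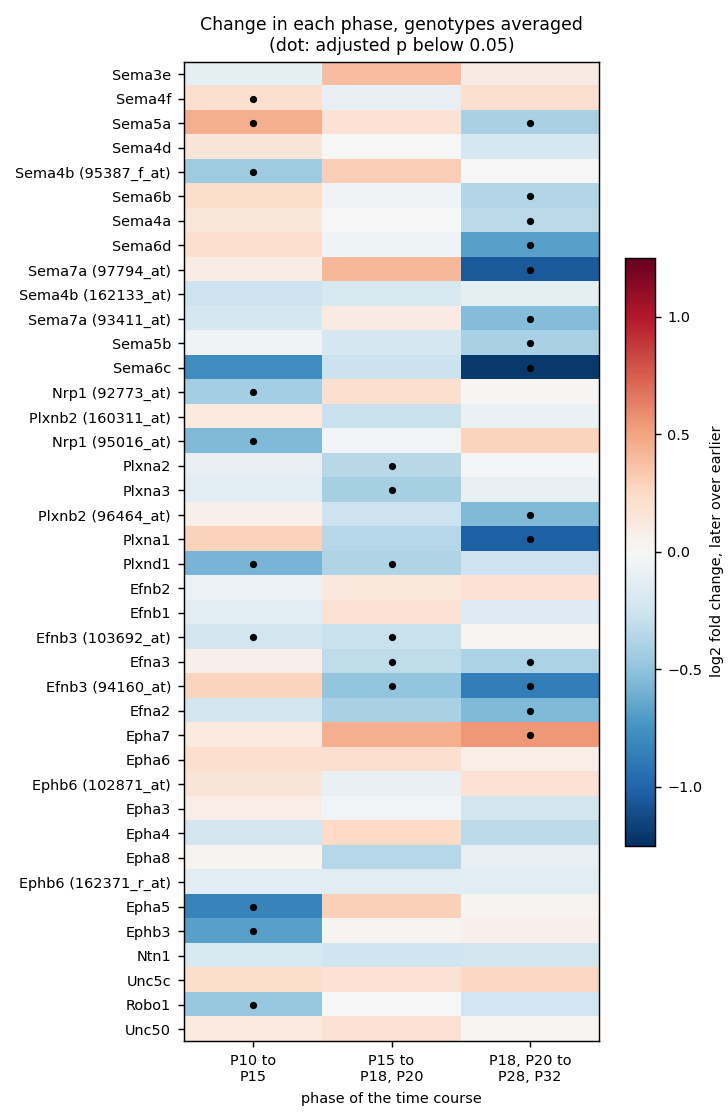
Log2 fold change (colour, later over earlier, both genotypes averaged) of the 40 members (y axis) in 3 phases of the time course (x axis). A dot marks an adjusted p below 0.05. Calls of Epha5, Nrp1 and Robo1 lie in the first phase, those of Plxna2 and Plxna3 in the second, and those of Sema6c, Sema6d and Plxna1 in the third.

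Maturation was called for 20 members in each genotype, and no member's change was called as different between them. In heterozygotes (3 late and 4 P10 pools) 16 members fell and 4 rose, 40% and 10%, against 19.4% and 16.8% of all probe sets tested. In wild type (4 late and 3 P10 pools) 16 fell and 4 rose, against 20% and 17.8%. The difference between the genotypes was called for 0 of 40 members (0% of all probe sets), 3 had an unadjusted p below 0.05, and the smallest adjusted p was 0.657. Efna3 had -0.45 in heterozygotes and -0.87 in wild type, a difference of 0.42 (95% confidence interval 0.11 to 0.73, adjusted p = 0.657). Over the 40 members the difference ran from -0.88 to 0.52.

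Heterozygotes and wild type were also compared directly. With all ages together 0 members were called (0% of all probe sets tested), 7 had an unadjusted p below 0.05, and differences ran from -0.36 to 0.46. The 3 smallest p-values were those of Plxnb2 (96464_at), -0.36 (95% confidence interval -0.57 to -0.15, adjusted p = 0.289), Unc5c, 0.22 (95% confidence interval 0.05 to 0.40, adjusted p = 0.429), and Epha3, -0.20 (95% confidence interval -0.40 to -0.01, adjusted p = 0.513). The brighter Plxnb2 probe set (160311_at) had 0.04 (95% confidence interval -0.13 to 0.21, adjusted p = 0.913). At P10 limma called 0 members (0.0395% of all probe sets) and at P15 also 0 (0%), while 1 and 2 members had an unadjusted p below 0.05. At P28 the calls were 0 (0.0132%), beside 2 members with an unadjusted p below 0.05. At P32, where the lone heterozygous pool was assumed to vary like the other groups, they were 0 (0.0132%), beside 1 such member.

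At P18, with 2 pools each, 11 of the 40 members (27.5%) were called between the genotypes, near the 22.4% of all probe sets tested. Of these, 8 were lower and 3 higher in heterozygotes. The Gapdh ratio was higher in both heterozygous pools (-0.051 and 0.48) than in both wild-type pools (-0.26 and -0.23), and with it as a covariate 0 members were called. Without pool 1b, 2 members were called, Plxnb2 and Efna3, and without pool 1a 17. Without either wild-type pool it was 6. With 1 pool left in an arm, that pool is assumed to vary like the other groups. Of all probe sets tested 11.6% were lower and 10.8% higher. Array medians also lay apart, at 51.4 and 51.8 in the heterozygous pools, against 55.2 and 57.9 in the wild-type pools. The part of RNA quality in the P18 differences was not tested.

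Plxnb2 (96464_at) had 82.5 and 68.6 in the heterozygous pools 1a and 1b, against 162 and 172 in the wild-type pools. The difference was -1.15 (SE 0.19, adjusted p = 0.000464), or -1.02, adjusted p = 0.0192 without pool 1b. Efna3 had 385 and 323 in the heterozygous pools 1a and 1b, against 671 and 577 in the wild-type pools. Its difference was -0.82 (SE 0.14, adjusted p = 0.000543), or -0.69, adjusted p = 0.0206 without pool 1b. On these probe sets both heterozygous pools lay below both wild-type pools. The brighter Plxnb2 probe set (160311_at) overlapped, with 191 and 118 in the heterozygous pools 1a and 1b, against 174 and 211 in the wild-type pools, and was not called at -0.35 (95% confidence interval -0.80 to 0.09, adjusted p = 0.245).

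Plxna1 had 69.3 and 42.1 in the heterozygous pools 1a and 1b, against 129.9 and 143 in the wild-type pools. Its difference was -1.34 (SE 0.27, adjusted p = 0.00195), and without pool 1b -0.98, adjusted p = 0.0787. Epha5 had 173 and 249.7 in the heterozygous pools 1a and 1b, against 102 and 92.4 in the wild-type pools. Its difference was 1.098 (SE 0.22, adjusted p = 0.00205), and without pool 1b 0.83, adjusted p = 0.0759. Sema4b (95387_f_at) had 90.0 and 277 in the heterozygous pools 1a and 1b, against 56.6 and 65.1 in the wild-type pools, so that pool 1b alone was far from the rest, with 1.38 (SE 0.32, adjusted p = 0.00459) and without it 0.57, adjusted p = 0.248. The other Sema4b probe set (162133_at) lay the other way, with 60.1 and 65.5 in the heterozygous pools 1a and 1b, against 94.7 and 84.0 in the wild-type pools, and was not called at -0.51 (95% confidence interval -0.92 to -0.09, adjusted p = 0.0685), so no direction is given for the gene.

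Sema6d had 75.8 and 67.9 in the heterozygous pools 1a and 1b, against 130.3 and 127 in the wild-type pools, a difference of -0.84 (SE 0.29, adjusted p = 0.0413) and without pool 1b -0.77, adjusted p = 0.259. Sema5b had 103 and 46.6 in the heterozygous pools 1a and 1b, against 118 and 109.8 in the wild-type pools, where pool 1b held the low value, with a difference of -0.71 (SE 0.25, adjusted p = 0.0451) and without pool 1b -0.14, adjusted p = 0.791. Sema4a had 179 and 123 in the heterozygous pools 1a and 1b, against 257 and 235 in the wild-type pools, a difference of -0.73 (SE 0.22, adjusted p = 0.0228) and without pool 1b -0.46, adjusted p = 0.346. For all 3 semaphorins the heterozygous pools were below the wild-type pools.

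Ntn1 had 61.7 and 70.3 in the heterozygous pools 1a and 1b, against 94.3 and 119 in the wild-type pools, with -0.68 (SE 0.21, adjusted p = 0.0209) and without pool 1b -0.78, adjusted p = 0.0832. Epha3 had 33.9 and 30.5 in the heterozygous pools 1a and 1b, against 52.2 and 56.8 in the wild-type pools, with -0.76 (SE 0.24, adjusted p = 0.0291) and without pool 1b -0.68, adjusted p = 0.209. Nrp1 (92773_at) had 315 and 489 in the heterozygous pools 1a and 1b, against 217 and 262 in the wild-type pools, with 0.72 (SE 0.23, adjusted p = 0.0307) and without pool 1b 0.40, adjusted p = 0.429. The groups did not overlap in these 3 genes either, and Nrp1 was the one higher in heterozygotes.

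**Figure D4:**
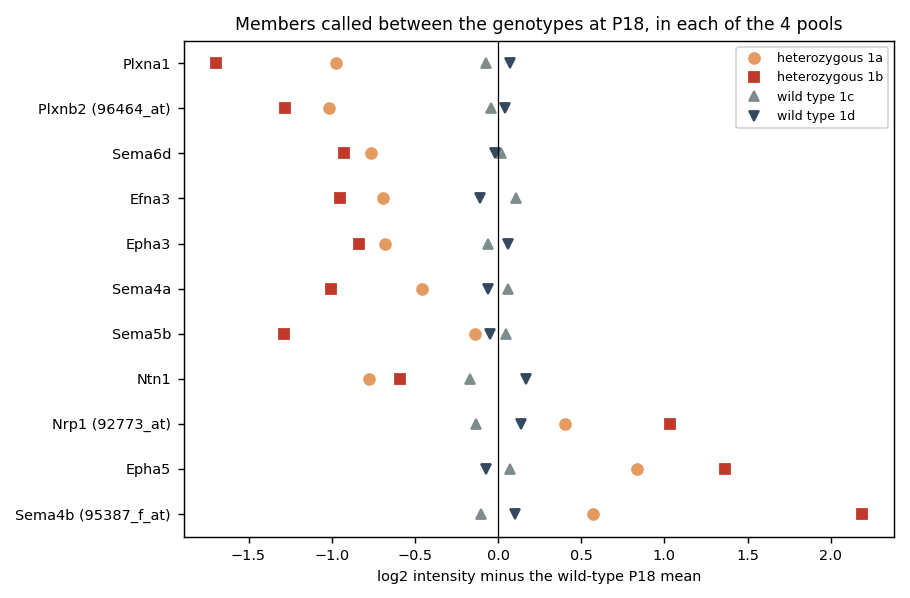
Log2 intensity at P18 minus the mean of the wild-type P18 pools (x axis) for the 11 members called between the genotypes (rows). Each symbol is 1 pool, squares and circles heterozygous and triangles wild type. Heterozygous pool 1b (squares) lies farther from 0 than pool 1a in 10 members, all but Ntn1.

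At P20 limma called 2 of the 40 members, against 2.23% of all probe sets tested. Plxnb2 (96464_at) was lower in heterozygotes, with 69.7 and 80.9 in heterozygous pools, against 137 and 124 in wild-type pools, a difference of -0.80 (SE 0.19, adjusted p = 0.0285). Its brighter probe set (160311_at) was not called at P20 and had the opposite sign, at 0.11 (SE 0.22, adjusted p = 0.865). No direction is therefore given for Plxnb2 as a gene at P20. Ephb6 (162371_r_at) was higher, with 121 and 157 in heterozygous pools, against 59.7 and 63.1 in wild-type pools, a difference of 1.17 (SE 0.31, adjusted p = 0.0484). At P18 this probe set stood the other way, at 67.5 and 100.5 in heterozygous pools, against 121 and 123 in wild-type pools, and was not called. Counts at P20 ran from 0 to 4 in fits that left out 1 library, and 0 of the 2 calls held in all of them. The Gapdh ratios at P20 also lay apart, at 0.0034 and 0.17 in the heterozygous pools and -0.33 and -0.30 in the wild-type pools. The interaction of genotype and age was called for 6 members (15%), against 6.18% of all probe sets tested: Efna3, Plxnb2 (96464_at), Plxna1, Epha5, Sema4b (95387_f_at) and Ephb6 (162371_r_at). It was called for 2 members without the heterozygous P18 pool 1b, for 0 without the wild-type P18 pool 1c, for 10 without the heterozygous P18 pool 1a, and for 0 without both heterozygous P18 pools.

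The change over each phase was also compared between the genotypes. From P15 to P18 and P20 the change differed for 1 of the 40 members, the second Sema4b probe set, against 4.61% of all probe sets tested. Its difference, heterozygous minus wild type, was 1.31 (SE 0.32, adjusted p = 0.0209), or 0.91, adjusted p = 0.0477 without the heterozygous P18 pool 1b. From P18 and P20 to P28 and P32 it differed for 6 (15%), against 11.9%, and without pool 1b for 4: Efna3, Plxnb2, Plxna1 and Unc5c. Among these Plxna1 fell in wild type, at -1.69 (SE 0.19, adjusted p = 1.26e-06), while in heterozygotes it had -0.35 (95% confidence interval -0.79 to 0.09, adjusted p = 0.426). Efna3 had 0.01 (95% confidence interval -0.22 to 0.23, adjusted p = 0.981) in heterozygotes and -0.81 (SE 0.097, adjusted p = 2.74e-06) in wild type. These comparisons share the P18 pools with the P18 comparison above.

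Other genes of the pathway were taken from lists of further receptors and ligands and of signalling proteins inside the cell, with 1 probe set per gene. Of 12 tested receptors and ligands 6 fell and 1 rose in maturation, with a median of -0.17. Their summed intensity overlapped between the windows, at 4998 to 5860 at P28 and P32, against 5798 to 6495 at P10. Only genes with lower estimates are named here. L1cam, an adhesion molecule of growing axons, stood at -2.06, Neo1, a netrin and Rgm receptor, at -0.99, Chl1, a relative of L1cam, at -0.84 and Fzd3, a Wnt receptor of axon tracts, at -0.59. Of 38 signalling genes 19 fell and 9 rose, with a median of -0.28. Beside both lists, 29.1% of all probe sets tested fell and 24.5% rose, with a median of -0.065. Rac3 stood at -2.75, Dpysl3 at -2.70, Crmp1 at -1.46 and Dpysl4 at -1.28, the last 3 being collapsin response mediators that carry semaphorin signals. Kalrn, an exchange factor of spines, stood at 1.33, Rras at 0.62, Tiam1, a Rac exchange factor, at 0.62 and Sdcbp, which binds ephrin-B tails, at 0.58.

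Markers of cell types were counted over the same span, in which 24.5% of all probe sets tested rose and 29.1% fell. Immature neuron and axon growth genes fell in 14 of 14 cases (median -1.14, 2 of them, Dpysl3 and Crmp1, also in the signalling list). Their summed intensity was 13867 to 16541 at P28 and P32, against 28111 to 31724 at P10. Of 10 endothelial genes 7 fell and 1 rose, with summed intensity of 885 to 1221 at P28 and P32, against 1617 to 1968 at P10. Of 8 oligodendrocyte genes 8 rose, with sums of 7726 to 9530.3 at P28 and P32, against 829.9 to 1231 at P10. Astrocyte genes rose in 7 of 10 cases and fell in 1, and mural and meningeal genes fell in 6 of 11. Microglial genes rose in 4 of 9 and fell in 1. Choroid plexus and ependymal genes rose in 1 of 4, with sums of 461 to 4976 at P28 and P32, against 162 to 2574 at P10. Interneuron genes rose in 4 and fell in 5 of 11, and excitatory neuron genes rose in 4 and fell in 2 of 10. Genes of neighbouring tissue rose in 1 and fell in 3 of 5, but their sums were uneven. The sums were 639 to 786 at P10, and at P28 and P32 687 to 786 in heterozygotes and 793 to 1800 in wild type. At P15 the highest sum was 848 in heterozygotes and 2041 in wild type. The part of these cell types and tissues in the members' changes was not tested.

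At P18 microglial genes were lower in heterozygotes in 4 of 9 cases, with sums of 2153 and 2581 in heterozygous pools, against 2858 and 2893 in wild-type pools. Astrocyte genes were higher in 3 and lower in 2 of 10, with sums of 8052 and 9938 in heterozygous pools, against 7318 and 7703 in wild-type pools, and genes of neighbouring tissue lower in 2 of 5, with sums of 664 and 801 in heterozygous pools, against 901 and 1052 in wild-type pools. Excitatory neuron genes were higher in 2 of 10, with sums of 3342 and 3820 in heterozygous pools, against 2854 and 3141 in wild-type pools. Mural and meningeal genes were higher in 1 and lower in 2 of 11, with sums of 2644 and 2701 in heterozygous pools, against 2897 and 3162 in wild-type pools. Choroid plexus and ependymal genes were lower in 1 of 4, with sums of 1214 and 1676 in heterozygous pools, against 1773 and 2423 in wild-type pools. Endothelial genes were higher in 2 of 10, interneuron genes in 1 of 11, immature neuron genes higher in 3 and lower in 1 of 14 (sums of 16763 and 17159 in heterozygous pools, against 15053 and 15970 in wild-type pools), and the 8 oligodendrocyte genes had 0 calls. Of the pathway lists, 4 of 12 further receptors and ligands were higher, and 3 of 38 signalling genes were higher and 4 lower, beside the 10.8% higher and 11.6% lower of all probe sets. Their part in the genotype differences was not tested.

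The 18 probe sets below the threshold were not summarised further. They hold 11 genes with no brighter probe set: Dcc, Efna1, Efna4, Efna5, Epha2, Robo3, Sema3a, Sema3b, Sema3c, Sema3f and Sema6a. Sema3c lay just outside at a mean of 29.96 and Epha5 (98376_at) at 26.3, and Sema7a (97794_at) just inside at 33.4 and Sema5a at 35.0. The 2 members just inside reached the threshold in 1 of the 2 windows only, Sema5a with a mean of 31.7 at P28 and P32 and 27.3 at P10, and Sema7a (97794_at) with 22.1 and 33.2. The other 38 members did so in both windows.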

How the data were processed

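Values are the intensities the authors deposited, 1 linear value per probe set and array. Each array's mean, trimmed by 2% at both ends, lay between 150.083 and 150.09, so arrays had been scaled to 1 level. The sources used here do not name the software. Of 12488 probe sets, 66 were controls. Symbols came from the platform annotation, where 10833 probe sets had 1 symbol, 396 several and 1193 none. Members and gene lists were chosen with earlier results of these data known.

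Intensities were floored at 1 (1.68% of values) and taken to log2. Probe sets with a mean of 31 or more (7591) were fitted with limma 3.58.1 in R 4.3.3, with a mean for each genotype and age over all 30 arrays, eBayes with an intensity trend, and Benjamini-Hochberg adjustment over all 7591. The fit recovered known changes in simulated data whose noise was independent between probe sets. Those data held no shift of a whole library, so they cannot show how the fit handles one. For genotype over all ages the model was additive in age and genotype. Values by group are given for up to 8 called rises and 8 called falls of maturation, up to 3 of each direction per phase, and members called between genotypes. The brightest probe set stands for a gene.

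Replicates carry title codes whose meaning is not given. Same-coded heterozygous and wild-type libraries did not deviate together, with correlations from -0.166 to 0.14, so the codes were not taken as pairs. Genotype effects at P20, P28 and P32 and the phases by genotype and their differences were added after seeing the data. Alternatives were log2(value + 32), other filters, quantile normalization, no trend, array weights, the Gapdh ratio or the title number as a covariate, the title code as a block, the compared groups alone, and leaving out each library. The number of arrays limits precision.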

Additional observations from a re-analysis of the deposited data

Results flagged for a closer look

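In groups of 4 pools, 3 values lay far from the other pools of their group by Dixon's test at 95%, of 78 groups tested, where chance gives about 1 in 20. They were Ephb6 (162371_r_at) at 68.65 in the heterozygous P15 pool 1c, Robo1 at 109.9 in the heterozygous P10 pool 1b and Sema6c at 66.96 in the heterozygous P15 pool 2c.

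The interaction of genotype and age passed limma's test for 6 members. Its adjusted p was 0.0118 for Efna3, 0.0164 for Plxnb2 (96464_at), 0.0288 for Ephb6 (162371_r_at), 0.0383 for Plxna1, 0.0452 for Sema4b (95387_f_at) and 0.0493 for Epha5. The interaction was not called for the other tested probe sets of Plxnb2 (160311_at, adjusted p = 0.439), Ephb6 (102871_at, adjusted p = 0.599) and Sema4b (162133_at, adjusted p = 0.368). Without the heterozygous P18 pool 1b, whose Gapdh ratio stood apart, it was called for Efna3 (adjusted p = 0.0454) and Ephb6 (adjusted p = 0.0355).

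The change from P15 to P18 and P20 differed between heterozygotes and wild type by 1.311 on the log2 scale for Sema4b (95387_f_at). The change from P18 and P20 to P28 and P32 differed by 0.817 for Efna3, 1.072 for Plxnb2 (96464_at), 1.345 for Plxna1, -0.709 for Unc5c, -0.856 for Epha5 and -1.198 for Sema4b (95387_f_at). Without pool 1b the late differences were 0.75 (adjusted p = 0.00482) for Efna3, 1.005 (adjusted p = 0.00821) for Plxnb2, 1.16 (adjusted p = 0.017) for Plxna1 and -0.80 (adjusted p = 0.0255) for Unc5c. Those of Epha5 (adjusted p = 0.0701) and Sema4b (adjusted p = 0.0509) then missed the threshold. With the Gapdh ratio as a covariate 0 of these 7 phase differences were called.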

How the results depend on the processing

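No called value changed sign under the alternatives run. Under log2(value + 32) all 27 maturation calls were kept, and under quantile normalization those of Epha8, Ephb3 and Ephb6 (162371_r_at) were lost. In maturation 22 of 27 calls held in every fit that left out 1 library, and counts ran from 24 to 28 (17 to 24 in heterozygotes, 15 to 22 in wild type). The early count of 10 ran from 6 (without the wild-type P10 pool 2a) to 11. The middle count of 6 ran from 2 (without the heterozygous P15 pool 1d or the wild-type P15 pool 2d) to 15 (without the heterozygous P18 pool 1a). It was 3 without the low-intensity filter, 3 without the trend, 1 with array weights, 3 with the title number as a covariate and 1 with the groups compared alone. The late count of 14 ran from 7 (without the wild-type P18 pool 1d or the heterozygous P28 pool 1a) to 16, and was 7 with the groups compared alone. At P18 the count of 11 ran from 2 (without heterozygous pool 1b) to 17 (without 1a), and was 6 without either wild-type pool, 3 with array weights and 0 with the groups compared alone or with the Gapdh ratio.

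The interaction count of 6 ran from 0 (without the wild-type P18 pool 1c) to 10, and was 3 without the filter, 3 with array weights, 0 with the Gapdh ratio and 0 without both heterozygous P18 pools. The P20 count of 2 ran from 0 to 4, and was 1 without the filter, 1 without the trend, 4 with array weights, 0 with the title number, 0 with the Gapdh ratio and 4 without both heterozygous P18 pools. The middle count of 10 in heterozygotes ran from 4 to 17, and was 2 with array weights, 1 with the Gapdh ratio and 5 without both heterozygous P18 pools. The late count of 0 in heterozygotes ran from 0 to 3, and that of 17 in wild type from 11 to 17, with 4 under the Gapdh ratio. The middle difference count of 1 ran from 0 to 7 and the late difference count of 6 from 3 to 15, and both were 0 with the Gapdh ratio. The cause of these moves was not tested.

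With the title code as a replicate block, 20 of 27 maturation calls held. With the replicate block the counts were 1 early, 0 middle, 4 late (3 of the 14 calls among them), 0 P18, 0 interaction, 0 P20, 0 middle difference, 0 late difference, 0 middle heterozygous and 4 late wild-type calls. Same-coded libraries did not deviate together, so this does not measure pairing.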
